A study of Arabidopsis thaliana with 12 samples.

Results

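PSAN (AT5G64040), the nuclear gene for the lumenal photosystem I subunit PSI-N, was followed across 6 wild-type (WT) and 6 pete2 samples of Arabidopsis thaliana. It was read from the single probe (probe 85) that the platform's probe table assigns to it alone, 1 of 3439 probes on the array. All 12 samples were total RNA of soil-grown plants of ecotype Columbia 0, and pete2 is a mutant without 1 isoform of plastocyanin. The sources used here do not give allele, tissue, age or growth light. Samples carry the numbers 1 to 6 in each genotype, and nothing states that they came from separate plants. All p-values therefore reflect the spread between samples that may be technical repeats. The plastocyanin genes PETE1 and PETE2 are not in the probe table, so the genotype labels could not be checked against the targeted transcript. None of the 21 marker genes for mesophyll, root, flower, guard cells, vasculature, dividing cells or senescence had a probe of its own either, so tissue make-up was not examined. If the RNA came from a mixture of cell types, fewer cells of a type and less RNA per cell cannot be told apart.

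Plastocyanin is a small copper protein of the thylakoid lumen that carries electrons from the cytochrome b6f complex to photosystem I. Photosystem I takes up these electrons on its lumenal face, where the PsaF subunit helps plastocyanin to dock. PSI-N is a small extrinsic subunit bound on that same face, and in Arabidopsis plants without it electron transfer from plastocyanin to photosystem I is slower. It is encoded in the nucleus (PSAN lies on chromosome 5), made in the cytosol, and carried across the chloroplast envelope and the thylakoid membrane into the lumen.

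PSAN was higher in every pete2 sample than in any WT sample. The deposited value is a linear intensity of unstated scanner, background correction and scaling. In WT the deposited PSAN intensities of samples 1 to 6 were 4.19, 4.10, 4.41, 4.84, 3.04 and 3.29. In pete2 the deposited intensities of samples 1 to 6 were 6.06, 6.15, 12.1, 13.8, 14.4 and 14.6. The WT values thus lay close together, with samples 5 and 6 lowest, while pete2 samples 1 and 2 lay well below the other 4. The groups did not overlap, and the lowest pete2 value was 1.25 times the highest WT value. The WT mean was 3.98 ± 0.684 (SD, n = 6), and the mean of pete2 was 11.2 ± 4.04 (SD, n = 6). Among the 3321 probes tested, 0.994% were likewise higher in every pete2 sample than in any WT sample as deposited. The log2 deposited intensity was 1.41 higher in pete2 (two-sided exact permutation p = 0.00216, the smallest that 6 against 6 samples can give). PSAN and its tests were chosen with earlier results of these data known, and the exact p-values are not corrected for that choice.

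**Figure D1:**
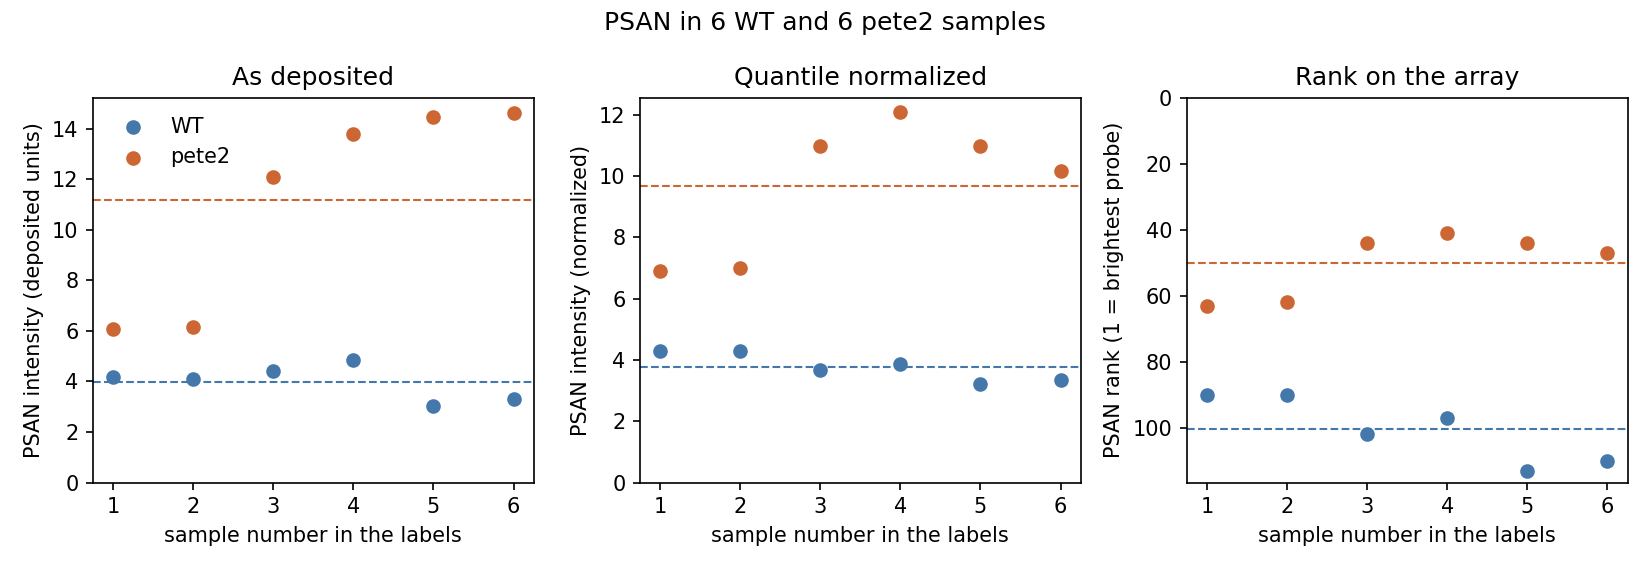
PSAN in each sample against its number in the labels, as deposited intensity, as quantile-normalized intensity and as rank among the probes of its array (axis reversed, so that brighter is up). Points are single samples and dashed lines are group means; all pete2 points lie above all WT points in each panel, and pete2 samples 1 and 2 lie nearest to WT.

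PSAN was a bright probe in both genotypes and never reached the upper limit of the scale, which 2 to 7 probes shared in each sample. It ranked between 90 and 113 from the brightest probe in the WT samples and between 41 and 63 in the pete2 samples. The rank needs no scaling between samples. PSAN was brighter than 97.1% ± 0.285 (SD, n = 6) of the probes of its array in WT and than 98.5% ± 0.283 (SD, n = 6) in pete2. The difference was 1.46 percentage points (two-sided exact permutation p = 0.00216). The 4 higher pete2 samples were almost alike in rank, at 44, 41, 44 and 47 for samples 3 to 6. In WT, PSAN made up 0.132% ± 0.0166 (SD, n = 6) of the summed intensity of its array. The share was 0.372% ± 0.130 (SD, n = 6) in pete2.

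Quantile normalization gives every sample the same distribution of intensities, so a normalized value follows from the rank of the probe in its sample. The difference was also present on these values, which is not a check separate from the rank. In WT the normalized PSAN intensity ran from 3.22 (sample 5) through a median of 3.76 to 4.30 (samples 1 and 2). In pete2 it ran from 6.89 (sample 1) through a median of 10.6 to 12.1 (sample 4). The groups did not overlap here either, as follows from the ranks. The same held for 3.31% of the probes tested in this direction. The log2 difference was 1.33 ± 0.172 (SE of the limma fit), or 2.52-fold, with a Benjamini-Hochberg adjusted p of 0.00034 over all probes. With the same threshold of 0.05, 4.91% of the 3321 probes tested were called higher (163) and 6.29% lower (209). The split of calls depends on scaling: 43.8% of calls were higher in pete2 here, 28.7% with each sample centred on its median, and 13.5% on the intensities as deposited. In these 3 settings the median log2 difference over all probes was -0.01, -0.23 and -0.63, and PSAN lay 1.34, 2.09 and 2.04 above it.

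Among the rises, PSAN stood higher by its change relative to its error than by the size of the change. The log2 differences were ordered from the largest rise down to the largest fall. PSAN was number 270 of the 3321 probes tested and number 109 of the 1740 probes above 0 in all samples. By limma's moderated t statistic in the same order, it was number 14 among all probes. It was number 3 among the 665 tested probes with a single gene. Every fall came below PSAN in these orders, and 37 probes of either direction had a smaller adjusted p. Bright probes were called more often than others. Of the 333 probes in the brightest 10% by mean level, 13.8% were called higher and 14.7% lower, and PSAN was number 18 of them by the size of its rise. The median log2 difference of these probes was 0.15 after normalization.

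The size of the rise differed between sample numbers. As deposited, PSAN was 1.45-fold and 1.50-fold higher in pete2 at numbers 1 and 2. The deposited fold was 2.74 and 2.85 at numbers 3 and 4, and 4.75 and 4.45 at numbers 5 and 6. Neighbouring numbers thus gave nearly the same fold, and the folds at numbers 5 and 6 were about 3 times those at numbers 1 and 2. Within a genotype, samples 1 and 2, 3 and 4, and 5 and 6 differed from each other in deposited PSAN by 1.01-fold to 1.14-fold. The means of these pairs spanned 1.46-fold in WT and 2.38-fold in pete2. Normalization reduced the spread, to 1.61-fold for the means of numbers 1 and 2, 3.07-fold at 3 and 4, and 3.21-fold at 5 and 6.

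**Figure D2:**
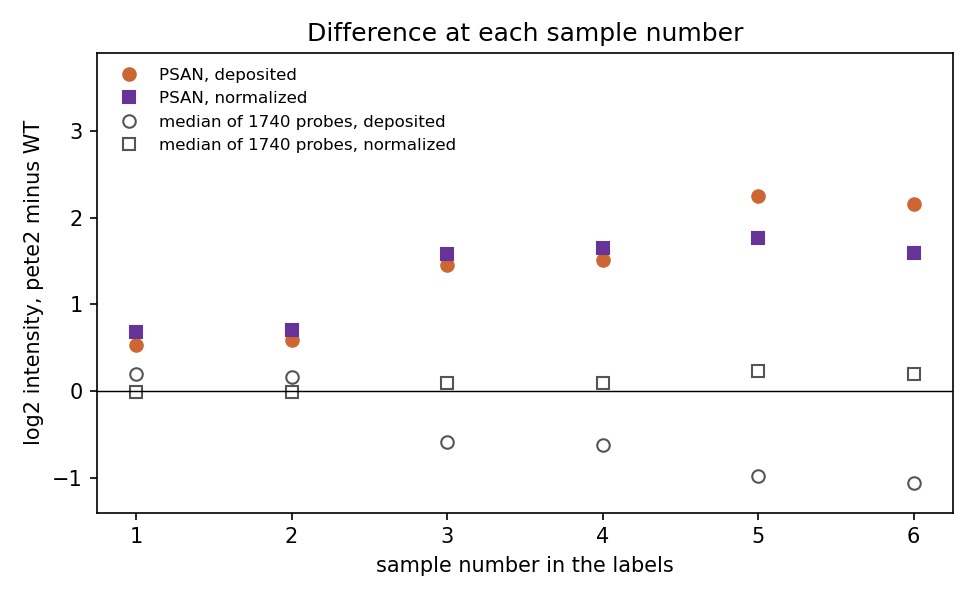
Log2 difference in intensity, pete2 minus WT, at each sample number, for PSAN (filled) and for the median of the 1740 probes above 0 in all samples (open), as deposited (circles) and after quantile normalization (squares). PSAN is above the median at every number; the gap is smallest at numbers 1 and 2, and the deposited median falls below 0 at numbers 3 to 6.

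Set against the other probes at the same number, the change of PSAN was ordinary at numbers 1 and 2. By the deposited log2 difference, from the largest rise down, it was number 659 and number 575 of the 1740 probes above 0 in all samples. Of these probes 58.6% and 56.3% were brighter in pete2. At numbers 3 to 6 it came between number 34 and number 52. After normalization PSAN was number 448 and 410 at numbers 1 and 2, and between 115 and 232 at numbers 3 to 6. The high place of PSAN among the rises thus rested on samples 3 to 6, while its direction was the same at all 6 numbers.

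As deposited, the samples with the highest PSAN were also those with the most probes listed at 0. By rank, PSAN was instead highest in pete2 sample 4 (41), and sample 6 (47) was the lowest of samples 3 to 6. The share of probes at 0 was 15.7% to 17.8% in the 6 WT samples. In pete2 it was 17.2% and 17.1% in samples 1 and 2, 21.6% and 21.5% in samples 3 and 4, and 30.7% and 28.6% in samples 5 and 6. The median deposited intensity moved the other way, from 0.183 and 0.182 in pete2 samples 1 and 2 to 0.0543 and 0.0590 in samples 5 and 6, against 0.129 to 0.193 in WT. The part of these array-wide differences in the PSAN values was not tested. In pete2 samples 1 and 2, whose shares at 0 lay within the range of WT, PSAN was above every WT sample. Without samples 5 and 6 of both genotypes, the log2 difference of PSAN was 1.11 ± 0.189 (SE, adjusted p = 0.00996). Without samples 1 and 2 it was 1.71 ± 0.117 (SE, adjusted p = 0.000234), a fit added after the data were seen.

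If the neighbouring numbers are repeats of the same material, the samples are 3 per genotype. Over the 1740 probes above 0 in all samples, each sample's closest match within its genotype was its neighbour in number. When these pairs were averaged, which left 3 values per genotype, the log2 difference of PSAN was 1.33 ± 0.293 (SE) and missed the threshold (adjusted p = 0.132). In that fit 0.0903% of the probes were called higher and 0.331% in either direction. With the pairs as a random block in the fit PSAN passed (adjusted p = 0.000667), as did 1.9% of the probes in this direction and 5.06% in either. That fit takes 1 correlation within pairs for all probes (0.525), and the SE of PSAN in it was 0.179. Neighbouring samples differed in deposited PSAN by at most 1.14-fold, while pair means spanned 1.46-fold in WT and 2.38-fold in pete2. The correlation for PSAN alone was not estimated. Since its neighbouring samples lay so much closer than its pair means, the shared value of 0.525 is too low for PSAN. Its SE of 0.179, against 0.293 with pairs averaged, and this pass therefore do not account in full for such repeats. The exact permutation test of 3 against 3 pair means cannot go below 0.10, which is the value that both the rank and the deposited intensity of PSAN gave.

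PSAN was the single photosystem I subunit that could be read. Of 17 loci listed for photosystem I subunits the other 16 had no probe in the table, and the same held for the 6 antenna genes of photosystem I, the 8 genes of electron acceptors and cyclic flow around it, the 8 other lumen proteins and the 4 genes of protein transport into thylakoids. Of 119 loci in 14 photosynthesis lists, 11 had a probe of their own and 6 lay on probes shared with other genes, which are not used here. PSAN itself rose, and of the other 10 genes 1 rose and 0 fell, where 4.91% of all probes tested were called higher. The log2 difference was positive for 9 of the 11, against 49.3% of all probes. Their median log2 difference was 0.76, against -0.01 over all probes tested. Without PSAN, the gene chosen for this report, 8 of 10 were positive and the median was 0.68. SBPASE and AT1G22700, both positive, had several samples at 0. All probes are not matched to these genes in brightness, and the median of the brightest 10% was 0.15. These lists were chosen with earlier results of these data known.

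PSBY (AT1G67740), a small subunit of photosystem II, was the other gene called. Its normalized intensity ran from 2.08 through a median of 2.18 to 2.98 in WT. In pete2 it ran from 3.04 through a median of 4.25 to 6.68. The groups thus did not overlap after normalization, as for 3.31% of the probes tested in this direction. As deposited they did overlap, since pete2 sample 1 (2.76) lay below WT sample 5 (2.82). PSBY rose by 0.91 ± 0.203 (SE) in log2 units (adjusted p = 0.0126). It missed the threshold with pairs averaged (adjusted p = 0.286) and with median centring (adjusted p = 0.0692). Within WT the 2 genes were ordered differently, since PSBY was highest in samples 5 and 6 (2.98 and 2.65), where PSAN was lowest. AT1G22700, known as PYG7, a factor of photosystem I assembly, had zeros in 2 samples of WT and in 3 of pete2 and did not pass (adjusted p = 0.848). LHB1B2, a chlorophyll-binding protein of the photosystem II antenna, had a larger log2 difference than PSAN, 1.50 ± 0.955 (SE), but did not pass (adjusted p = 0.342). Its normalized intensity was between 32.9 and 42.6 in WT samples 1 to 4 and 1.12 and 1.47 in WT samples 5 and 6.

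The remaining measured genes did not pass the test either. CCS, the copper chaperone of superoxide dismutase and the single measured gene of the copper list, differed by 0.85 ± 0.290 (SE) in log2 units (adjusted p = 0.0797). Its normalized intensity was 0.169 and 0.172 in pete2 samples 1 and 2, inside the WT range of 0.117 to 0.173, and 0.257 to 0.423 in samples 3 to 6. This order depends on the scaling: as deposited, pete2 samples 1 and 2 (0.226 and 0.228) lay above the WT range of 0.164 to 0.195, sample 3 (0.181) lay inside it, and the log2 difference was 0.30. PSBW, a small photosystem II subunit, had a log2 difference of 0.61 and AT1G74470, the geranylgeranyl reductase of chlorophyll synthesis, one of 0.76 (adjusted p = 0.187 and 0.221). PRK, the phosphoribulokinase of the Calvin cycle, had 0.28 (adjusted p = 0.542), and SBPASE of the same cycle had zeros in 6 samples of WT and 4 of pete2. Negative differences were found for PSB27, a photosystem II assembly factor (-0.62, adjusted p = 0.469), and CHLM, the magnesium protoporphyrin methyltransferase of chlorophyll synthesis (-1.02, adjusted p = 0.143). Some of these were called in other settings. PSBW was called higher as deposited (adjusted p = 0.0181) and with median centring (adjusted p = 0.032), and CHLM lower as deposited (adjusted p = 0.0451) and with array weights (adjusted p = 0.0266). AT1G74470 was called higher without samples 5 and 6 of both genotypes (adjusted p = 0.013). CCS was called without pete2 sample 1 (adjusted p = 0.038) or sample 2 (adjusted p = 0.0423), with array weights (adjusted p = 0.0497) and over the probes above 0 in all samples (adjusted p = 0.0448).

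**Figure D3:**
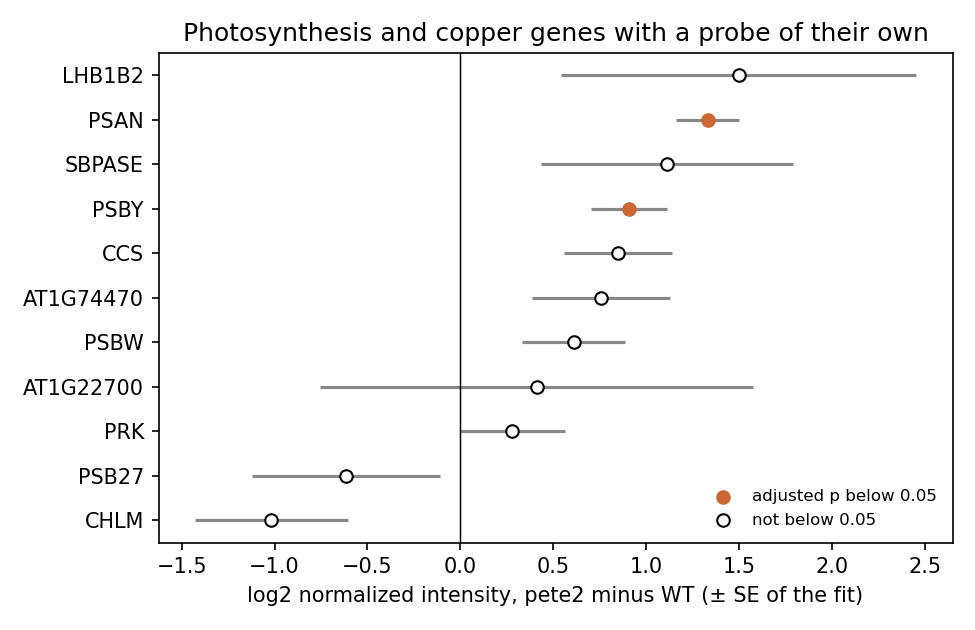
Log2 difference in normalized intensity, pete2 minus WT, with the SE of the limma fit, for the 11 listed genes that have a probe of their own. PSAN and PSBY (filled) pass the threshold on the adjusted p; PSAN has the smallest SE of the 11.

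Whether PSAN moved differently from these genes was examined by its ratio to each of them within a sample. A ratio removes a factor common to all probes of a sample, but not a difference in the spread of intensities. The mean of the array medians was 0.161 in WT and 0.110 in pete2, and that of the 99th percentiles was 12.8 and 16.7. The part of this difference in the ratios of PSAN to dimmer genes was not tested. The 8 genes above 0 in all samples were used, and p-values are two-sided exact permutation values with Benjamini-Hochberg adjustment over the 8. Relative to PSBY, deposited PSAN was 1.57-fold higher in pete2 than in WT, a log2 difference of 0.65 that 6 of 6 pete2 samples showed against every WT sample (adjusted p = 0.00433). The ratio to CCS rose 2.17-fold, that to PRK 2.72-fold and that to CHLM 8.49-fold, again in 6 of 6 pete2 samples (adjusted p = 0.00433 each). The ratio to PSB27 rose 4.71-fold, with 5 of 6 pete2 samples above all of WT (adjusted p = 0.00693). PSAN thus rose relative to 5 of the 8 genes as deposited.

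Relative to the other 3 genes no difference passed the test. The log2 ratio of PSAN to PSBW was 0.30 higher in pete2 (adjusted p = 0.398), that to AT1G74470 was 0.94 higher (adjusted p = 0.11), and that to LHB1B2 had a difference of -0.26 (adjusted p = 0.74). WT spread was wide for LHB1B2, with log2 ratios from -3.26 to 1.21, so this comparison could show little. On quantile-normalized values 2 of the 8 passed, PRK and CHLM, and the ratio to PSBY had a log2 difference of 0.42 (adjusted p = 0.097). With pairs averaged none of the 8 could pass, since 0.10 is the smallest unadjusted exact p. The change in the ratio also grew with the sample number for PSBY, from a log2 difference of 0.14 at numbers 1 and 2 to 0.86 at 3 and 4 and 0.94 at 5 and 6. For CCS it was 0.12, 1.39 and 1.84 in the same order, and it also grew for PSBW, PSB27 and AT1G74470. Steady growth was absent for PRK (0.90, 1.91 and 1.52), CHLM (0.97, 4.36 and 3.93) and LHB1B2 (0.52, 0.50 and -1.79).

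**Figure D4:**
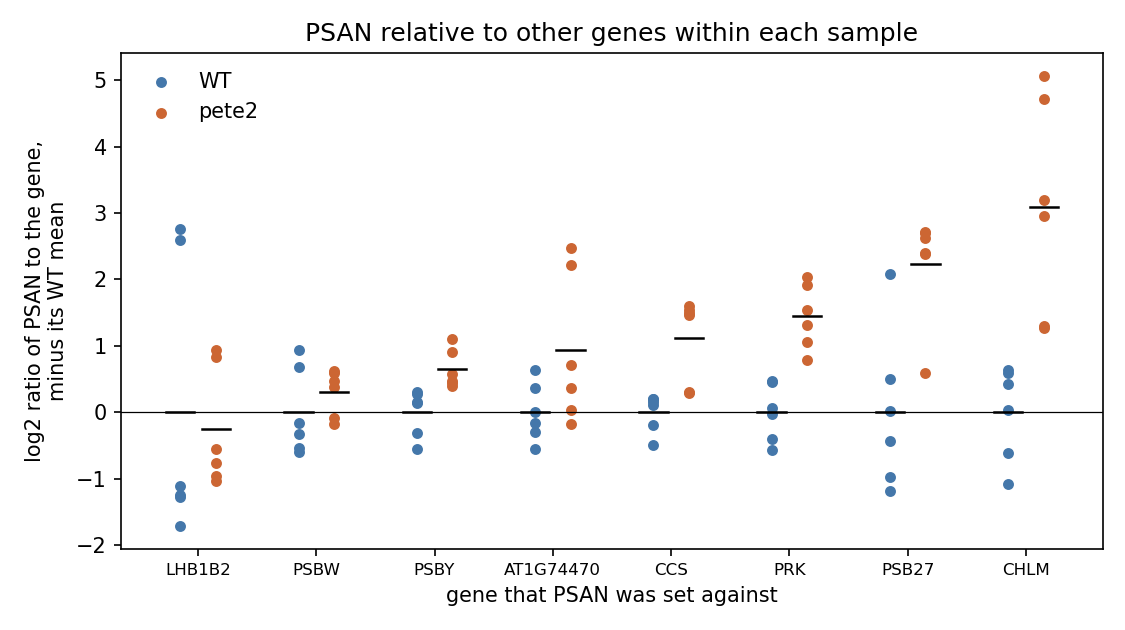
Log2 ratio of deposited PSAN to each of 8 genes within a sample, set to a WT mean of 0. Points are samples and bars are group means; for PSBY, CCS, PRK and CHLM all pete2 points lie above all WT points, while for PSBW and LHB1B2 the groups overlap.

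The genes most like PSAN were sought among the 334 other genes with a probe of their own above 0 in all samples. Likeness was Pearson's r of normalized log2 intensity over the 12 samples, which share genotype, arrays and the pairs of numbers, so r is given as a description. AT1G32730, for which the annotation used here gives no name, was closest with r = 0.99, and the median over the 334 genes was 0.04. Its normalized intensity was 1.28 to 1.84 in WT and 2.79 to 5.45 in pete2, with samples 5 and 6 lowest in WT and sample 4 highest in pete2, as for PSAN. AT1G32730 rose by 1.26 ± 0.179 (SE) in log2 units (adjusted p = 0.000646), and missed the threshold with pairs averaged (adjusted p = 0.14). This gene and the next ones by r over the 12 samples were picked by likeness to PSAN, whose groups did not overlap. Such picking favours genes with a genotype difference, so their p-values are not separate evidence of one. After each genotype's mean was taken out, r was 0.93, the highest of the 334.

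**Figure D5:**
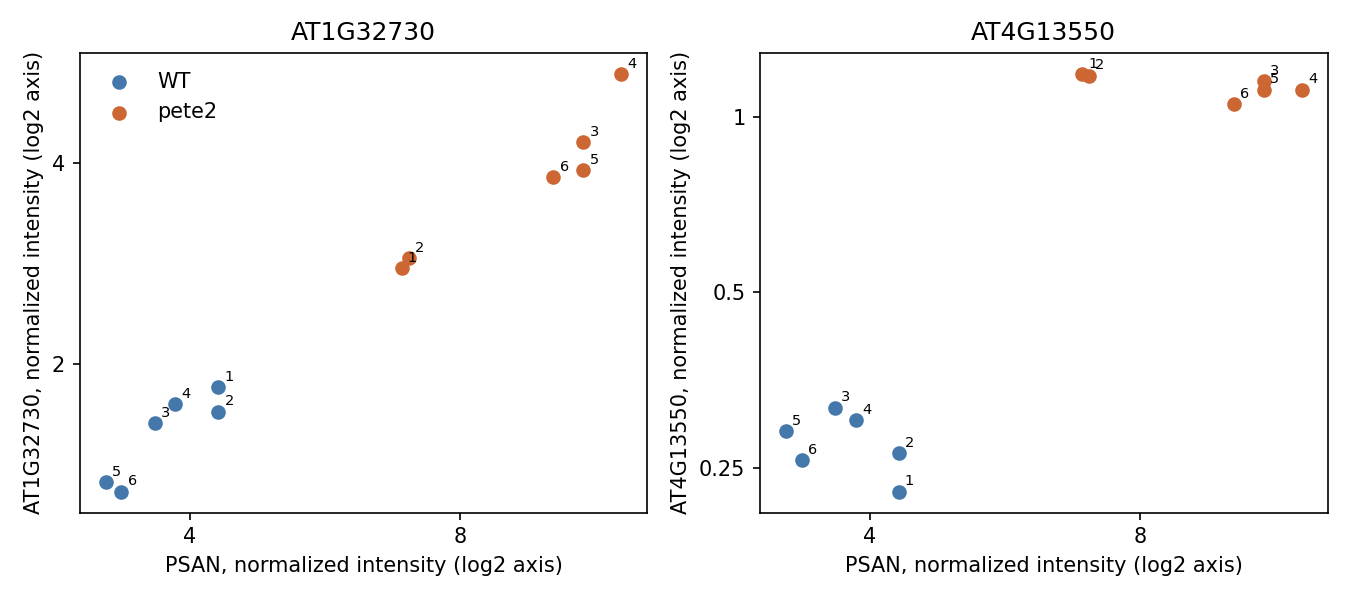
Normalized intensity of AT1G32730 and of AT4G13550 against PSAN in the 12 samples, on log2 axes, with the sample number beside each point. AT1G32730 follows PSAN within each genotype as well as between them; AT4G13550 separates the genotypes but does not follow PSAN within them.

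The next 4 genes by r over 12 samples were AT4G13550 (r = 0.91), HEMA3 (0.91), SIS (0.89) and AT5G49800 (0.88). For AT4G13550 and SIS the likeness lay in the genotype difference, since r within genotype was -0.39 and -0.35. AT4G13550 was steady where PSAN was not, at 0.228 to 0.317 in WT and 1.05 to 1.18 in pete2, and its log2 difference of 2.04 ± 0.133 (SE) also passed with pairs averaged (adjusted p = 0.039). HEMA3, an isoform of glutamyl-tRNA reductase in tetrapyrrole synthesis, rose by 1.01 ± 0.219 (SE) in log2 units (adjusted p = 0.011). SIS, annotated as salt induced and serine rich, had a log2 difference of 1.53 (adjusted p = 0.000296), and AT5G49800 one of 1.44 (adjusted p = 0.0107). On the intensities as deposited HEMA3 (adjusted p = 0.0995), SIS (0.0835) and AT5G49800 (0.0595) did not pass. AT5G49800 also missed the threshold with the pairs as a random block (adjusted p = 0.0845). With pairs averaged the adjusted p was 0.286 for HEMA3, 0.137 for SIS and 0.21 for AT5G49800. Without samples 5 and 6 of both genotypes HEMA3 had 0.056 and AT5G49800 had 0.0753.

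Within genotype the genes nearest to PSAN after AT1G32730 were AT1G54500 (r = 0.90), AT5G47890 (0.90), AT5G15280 (0.86) and AT5G19540 (0.85). This likeness lay mostly in pete2, where r was 0.97 for each. Within WT alone r was 0.70, 0.57, 0.025 and 0.43 in the same order. These genes need not share the genotype difference. AT5G15280 fell by 1.89 on the log2 scale in pete2 (adjusted p = 0.00165), yet was lower in pete2 samples 1 and 2 (normalized intensity 0.117 and 0.0981) than in samples 3 to 6 (0.248 to 0.320), the order seen for PSAN. As deposited this order was absent, since pete2 samples 1 and 2 had 0.159 and 0.135 while samples 5 and 6 had 0.165 and 0.127, so the likeness depends on the scaling. With pairs averaged its adjusted p was 0.148. AT1G54500 had 0.364 and 0.385 in pete2 samples 1 and 2, within its WT range of 0.350 to 0.422, and 0.962 to 1.09 in samples 3 to 6 (log2 difference 0.93, adjusted p = 0.0661). It was called with cyclic loess (adjusted p = 0.0415), with array weights (adjusted p = 0.0145), over the probes above 0 in all samples (adjusted p = 0.0422) and without pete2 sample 1 (adjusted p = 0.0168) or sample 2 (adjusted p = 0.0216). AT5G47890 and AT5G19540 had log2 differences of 0.14 and 0.77 and did not pass (adjusted p = 0.795 and 0.336). Among the photosynthesis genes r with PSAN within genotype was highest for CCS (0.80) and PRK (0.61).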

How the data were processed

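The authors deposited 1 linear intensity per probe and sample, and the sources used here do not say how it was made. Values deposited as 0 have no measured level. Probes were named from the platform's probe table and RefSeq's TAIR10.1 annotation: 692 probes had a single gene, 870 several and 1877 were not listed. The genome build of the array is unstated, so no coordinates are printed.

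Intensities were quantile normalized. Zeros and values under the 1st percentile of positive values (0.0056) took that percentile as their level before log2 conversion. Probes at 0 in every sample (118) were dropped. limma 3.58.1 in R 4.3.3 (lmFit, eBayes with trend) compared pete2 with WT over 3321 probes, with Benjamini-Hochberg adjustment. The calculation was also run on simulated data with the level and spread of each probe taken from these samples. It called only part of the changes put in, so a gene that did not pass may still differ. Permutation tests enumerated all regroupings (Python 3.11.15).

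Named genes are PSAN, every listed gene measured, and the 5 most like PSAN over all samples and within genotype. The gene, lists and tests were chosen with earlier results of these data known. Precision is limited by the number of arrays.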

Additional observations from a re-analysis of the deposited data

Results flagged for a closer look

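In 3 of 44 groups of 6 samples examined for PSAN and the other named genes, 1 sample lay far from the rest, judged by its gap to the nearest sample as a share of the group's range against Dixon's 95% critical value. Chance gives about 1 such case in 20 groups if the 6 values are independent. Neighbouring samples may be repeats, so this rate may not hold here. None of the 3 was PSAN, whose gaps were at most 0.201 of the range as normalized log2, deposited log2 or percentile. With neighbours as close as those of PSAN, a lone far sample could hardly arise. The lowest sample was pete2 sample 2 for PSB27 (0.657) and for AT5G49800 (0.659), and WT sample 1 for SIS (0.674). PSB27 was also low in WT sample 2, at a normalized intensity of 0.543 against 1.59 to 4.30 in the other WT samples, and it is 1 of the 5 genes relative to which PSAN rose.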

How the results depend on the processing

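The rise of PSAN passed the threshold in 25 of 26 alternative fits, with log2 differences from 1.11 to 1.86, and missed it with pairs averaged (1.33, adjusted p = 0.132). Apart from that fit and the one with pairs as a random block, none grouped neighbouring numbers within a genotype. Leaving out 1 sample also keeps its neighbour. The count of 25 thus does not show that the rise would pass if neighbours are repeats. The fits without samples 1 and 2 and without samples 3 and 4 were added after the data were seen. The rank percentile and the deposited log2 intensity kept their values of 1.46 and 1.41 with pairs averaged but could not pass (exact permutation p = 0.10). Leaving out 1 sample gave 1.25 to 1.44 for the fit, 1.39 to 1.53 percentage points for the rank, 1.32 to 1.57 for the deposited log2 intensity, and 287 to 423 called probes against 372. The count of called probes was 168 with pairs as a random block, 11 with pairs averaged, and 156 without samples 3 and 4 of both groups, a choice made after seeing the data. PSAN passed relative to 5 of 8 genes, but to 2 on normalized values and to 0 with pairs averaged. Whether the sample numbers pair the genotypes is not settled by the labels or the data: the correlation of deviations between same-numbered samples was 0.00467 at number 1 and 0.104, 0.330, 0.337, 0.256 and 0.195 at numbers 2 to 6, where each WT sample correlated best with the pete2 sample of its own number, as a hint from the data. The numbers were not treated as pairs, because number 1 did not exceed 0.1. With the number as a replicate block PSAN kept 1.33 (adjusted p = 0.00651), AT1G74470 passed (0.76, adjusted p = 0.00534), HEMA3 did not (1.01, adjusted p = 0.0512), 324 probes were called, and 0 of 8 ratios passed (5 had the smallest exact sign-flip p of 0.0313, adjusted 0.05). Of genes that did not pass, the log2 difference turned negative for AT1G22700 as deposited (-0.12) and without pete2 sample 1 (-0.23, with 0.84 the highest value when single samples were left out) or 2 (-0.16), for AT5G47890 as deposited (-0.37) and without samples 5 and 6 (-0.079), and for PRK in the same 2 settings (-0.028 and -0.13). The cause of these shifts was not tested. Probes listed at 0 limit what can be read of dim genes.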
